A study of Mus musculus with 12 samples.

Results

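Pre-mRNA splicing genes were followed across 3 cell types of the adult mouse dentate gyrus. The 39 genes encode SR proteins, SR-related proteins and other regulators of the spliceosome, many of which gather in nuclear speckles. They were taken as a named list of gene symbols, matched 1 to 1 to the identifiers of a count table that holds 50600 genes. The list was made with the expression values of these libraries known, so the counts of members given here describe the list and lend it no support.

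Splicing removes introns from pre-mRNA through the spliceosome, a machine built from small nuclear ribonucleoproteins (snRNPs) and many accessory proteins. SR proteins bind exons through RNA recognition motifs and recruit the spliceosome through a tail rich in arginine and serine, the RS domain. Kinases of the CLK and SRPK families phosphorylate that tail and release SR proteins from nuclear speckles, compartments whose core is built by SON and SRRM2, where splicing factors are stored close to active genes.

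Each library was made from 50 cells sorted from the dentate gyrus of Nestin-GFP mice aged 6 to 9 weeks, a strain in which a Nes promoter fragment drives GFP, so GFP marks cells by that transgene and not by Nes mRNA. All sorted cells were live and negative for CD31, CD45, O1 and O4. Astrocytes carried the surface protein GLAST but no GFP, stem cells carried both and progenitors carried GFP alone, with 4 libraries each. The libraries were preamplified with the SMARTer v4 kit and finished with Nextera XT, without molecular identifiers. The columns of the astrocyte and progenitor libraries carry no replicate number and are called a to d here, and the stem cell libraries are called 1 to 4.

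Counts assigned to genes ranged from 5357232 to 6253680 in the astrocyte libraries, from 9041498 to 12535028 in the progenitor libraries and from 5031166 to 10435711 in the stem cell libraries. Genes with at least 10 counts numbered 9430 to 11655 in astrocytes, 16389 to 17015 in progenitors and 13368 to 14175 in stem cells. The study describes the astrocyte cDNA as of suboptimal quality. By its filter for even read coverage, astrocytes had the fewest passing transcripts and progenitors the most. Slc1a3, which encodes GLAST, was at 3797 to 6158 counts per 1000000 normalised counts (CPM) in astrocytes, 6768 to 9249 CPM in stem cells and 2235 to 3403 CPM in the GLAST-negative progenitors, where it was lower than in stem cells (log2 fold change -1.54 ± 0.18, adjusted p = 0.00118 by edgeR). Nes had no count in any astrocyte library nor in 3 of the 4 stem cell libraries, and it ranged from 0.0835 to 19.96 CPM in progenitors. The summed level of 7 astrocyte markers was 13240.5 to 17178 CPM in astrocytes, 5982 to 7848 CPM in progenitors and 19307 to 26092 CPM in stem cells, and that of 8 markers of progenitors and immature neurons was 711 to 1669 CPM in progenitors and at most 225 CPM elsewhere. Markers of other cell types were also detected, and 4 markers of mature neurons (Rbfox3, Snap25, Camk2a and Syt1) summed to 595 to 4855 CPM in astrocytes against 147 to 221 CPM in progenitors and 237 to 433 CPM in stem cells, and 5 markers of oligodendrocyte precursors summed to 1732 to 2715 CPM in progenitors against at most 320.3 CPM elsewhere. Sums were at most 111 CPM for 5 microglia markers and at most 115 CPM for 4 endothelial markers, with Cldn5 and Slco1a4 at 0 in astrocytes. The sum of 4 mural markers was 1241, 38.5, 2099 and 907 CPM in progenitor libraries a to d and at most 192 CPM elsewhere, and that of 5 oligodendrocyte markers was 222 to 2869 CPM in astrocytes, 245 to 379 CPM in progenitors and 449 to 766 CPM in stem cells. In pools of cells, fewer cells of a type and less RNA per cell cannot be told apart.

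All 39 members were detected in all 12 libraries. In each library 38 or 39 of them reached 10 counts, 37 did so in all libraries, and Srsf9, the lowest, had 1 count in astrocyte library c. Levels between genes were compared per kilobase of exon. On that scale the mean of the 3 cell types was highest for Rsrp1, an arginine- and serine-rich protein, at 411 CPM per kb. The classical SR protein gene Srsf5 followed at 172 CPM per kb and Pnisr, which encodes a protein that interacts with the speckle component pinin, at 165 CPM per kb. The lowest were Cdk13 at 2.39, Srsf9 at 2.68 and Cdk12 at 4.25 CPM per kb, where Cdk12 and Cdk13 encode kinases of the RNA polymerase II tail. The spread between replicate libraries differed by cell type, with a median coefficient of variation over the 39 members of 35.6% in astrocytes, 14% in progenitors and 27.4% in stem cells.

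The stretches that give SR and SR-related proteins their name can be read in the coding sequence. The longest uninterrupted run of arginine or serine codons is shown for 4 members that were higher in astrocytes than in progenitors (Son, Pnn, Pnisr and Luc7l3) and for 4 that did not pass that test (Srsf1, Srsf2, Srsf6 and Rsrp1). Sequences are from GRCm38, 5′ to 3′ on the coding strand, with arginine codons in capitals and serine codons in lower case. The run of Srsf6 spans an intron that is left out.
Son (chr16:91660025-91660075, plus strand): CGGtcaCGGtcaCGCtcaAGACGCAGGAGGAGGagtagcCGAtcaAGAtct
Pnn (chr12:59072376-59072420, plus strand): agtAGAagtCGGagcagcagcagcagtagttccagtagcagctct
Pnisr (chr4:21874104-21874130, plus strand): AGACGTAGAagcAGAagtCGCtcaAGG
Luc7l3 (chr11:94296967-94296987, minus strand): AGAagtCGTtcaCGGagtAGA
Srsf1 (chr11:88049469-88049516, plus strand): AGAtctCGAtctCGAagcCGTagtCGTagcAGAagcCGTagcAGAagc
Srsf2 (chr11:116852265-116852327, minus strand): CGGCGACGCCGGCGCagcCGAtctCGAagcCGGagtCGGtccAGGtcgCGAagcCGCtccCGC
Srsf6 (chr2:162933852-162934291, plus strand): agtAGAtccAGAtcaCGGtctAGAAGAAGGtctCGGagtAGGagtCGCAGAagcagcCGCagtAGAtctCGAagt
Rsrp1 (chr4:134924032-134924076, plus strand): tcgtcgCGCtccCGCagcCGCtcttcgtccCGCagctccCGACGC

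The runs are not alike. Those of Srsf1, Srsf6 and Luc7l3 alternate or nearly alternate arginine with serine (8 and 8 codons in Srsf1, 13 and 12 in Srsf6, 4 and 3 in Luc7l3). The run of Pnn holds 13 serines among 15 codons and that of Rsrp1 9 among 15. A run of at least 8 such codons was found in 26 of the 39 members (66.7%), against 180 of 12350 coding genes tested (1.46%). By class it was present in 11 of 12 SR proteins and 9 of 9 scaffold and SR-related genes, in 4 of 8 snRNP-associated genes and 2 of 6 kinases, and in 0 of the 4 genes of helicases, paraspeckle and export. A run was present in 8 of the 13 members higher in astrocytes than in progenitors and in 11 of the 12 SR protein genes, none of which passed that test. Most members also had annotated transcripts that are not productive. The members had 4 to 26 annotated transcripts each, and the shares below were not matched for that number. At least 1 transcript of the nonsense-mediated decay class was annotated for 32 of 39 members (82.1%) against 29.0% of 12481 coding genes, and at least 1 retained-intron transcript for 33 of 39 (84.6%) against 58.4%. Gene-level counts do not separate those transcripts from the productive ones.

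Together, the members took a larger share of the counts in astrocytes than in the other cell types. The share was 1.66, 2.22, 2.14 and 1.69% in astrocyte libraries a to d (1.93% ± 0.29, SD, n = 4). It was 1.04, 1.10, 1.07 and 0.971% in the progenitor libraries (1.04% ± 0.053, n = 4) and 1.02, 1.24, 0.928 and 0.995% in the stem cell libraries (1.04% ± 0.13, n = 4). Every astrocyte library lay above every library of the other cell types, and the ranges of progenitors and stem cells overlapped. The member score, the mean over the 39 genes of log2(CPM + 1), which weighs every member equally, was 7.90 ± 0.25 in astrocytes, 7.11 ± 0.10 in progenitors and 7.2 ± 0.12 in stem cells (SD, n = 4 each). The lowest astrocyte score of 7.57 was above the highest stem cell score of 7.36, with CPM on normalised (TMM) library sizes. The TMM factors were 0.795 to 0.914 in astrocytes, 1.163 to 1.198 in progenitors and 0.931 to 1.07 in stem cells. A lower factor raises a library's CPM, so these factors widened the gap between astrocyte and progenitor scores. With CPM on total counts the progenitor score was 7.36, and whether the astrocyte libraries stayed above the others on that scale was not tested. When the 100 highest genes of each library were left out and only coding genes were counted, 1 to 7 members were removed per library. The members summed therefore differed between libraries. The mean share was then 1.29% in astrocytes, 0.897% in progenitors and 1.05% in stem cells. Libraries ranged from 1.22 to 1.37% in astrocytes, from 0.718 to 1.04% in progenitors and from 0.853 to 1.21% in stem cells.

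**Figure D1:**
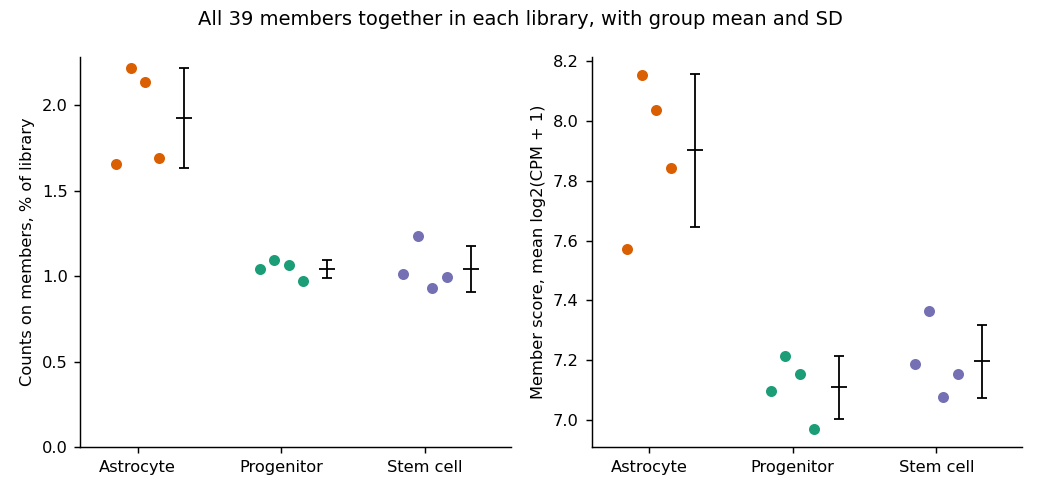
Left, percent of a library's counts that fell on the 39 members (axis from 0), and right, the member score in log2(CPM + 1) (axis not from 0). Points are libraries and black marks are the group mean with its SD (n = 4); the astrocyte libraries at 1.66 to 2.22% sit above all others, which lie between 0.928 and 1.24%.

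**Figure D2:**
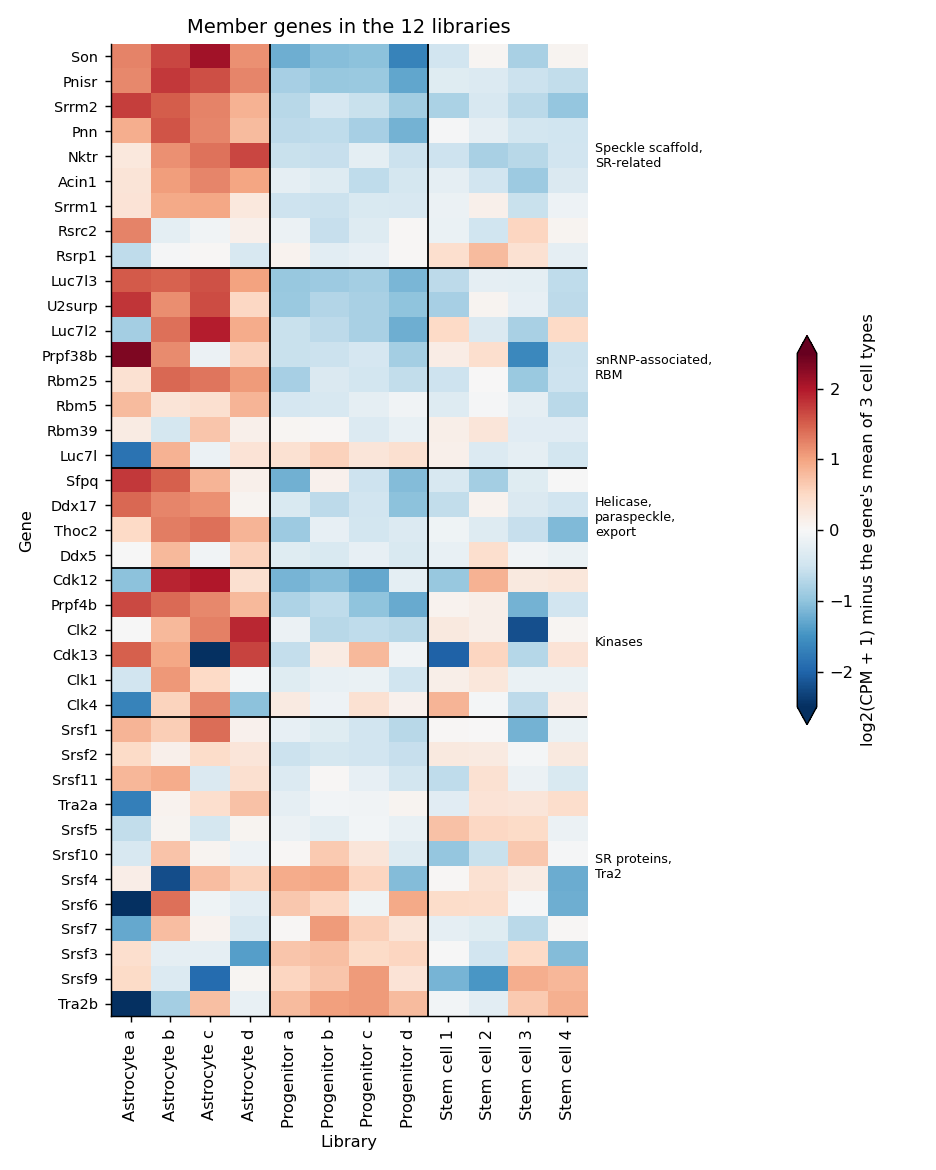
Each row is 1 member and each column 1 library, and color is log2(CPM + 1) minus the gene's mean over the 3 cell types (red above, blue below, values past 2.5 shown at the end colors). Rows are grouped by class; rows such as Son, Pnisr and Luc7l3 are red in all 4 astrocyte libraries, whereas the SR proteins at the bottom are red and blue in the same cell type.

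In the comparison of astrocytes with progenitors, 13 of the 39 members were higher in astrocytes and 0 were lower (edgeR quasi-likelihood test, adjusted p under 0.05 over 14806 genes), while 2.45% of all genes tested were called higher and 6.18% lower. The median log2 fold change of the members was 0.88, against 0.03 for all genes tested. Without correction for multiple testing, p was under 0.05 for 22 members on the higher side and 1 on the lower. The same held for 2792 of all 14806 genes, both sides together. DESeq2 called 21 members higher and 0 lower, with 6.43% of all genes higher and 9.99% lower. A fit of all 12 libraries together called 17 members higher and 0 lower (3.28% and 5.32% of all genes). In 20 members every astrocyte library lay above every progenitor library, as it did in 5.84% of all genes, and the reverse held for 2 members, Tra2b and Srsf3, and for 15.2% of all genes. The call count was 8 when progenitor library c or d was left out and 9 to 17 when any other library was, and without astrocyte library a, which had the highest sums of mature neuron markers (4855 CPM) and oligodendrocyte markers (2869 CPM), it was 17. The calls over all genes, in both directions, moved as well, from 1278 to 1802 without astrocyte library a, 719 without progenitor library c and 794 without progenitor library d. Restricting the test to genes among the 4000 highest of every library left 24 members, of which 11 were higher and 2 were lower (Rsrp1 and Srsf3), with 13.6% of all genes in that test higher and 8.24% lower.

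The calls were not spread evenly over the classes. The speckle scaffold and SR-related class held 6 of them among 9 genes (median log2 fold change 1.68), the snRNP-associated and RBM class 4 among 8 (1.77), the helicase, paraspeckle and export class 2 among 4 (1.59) and the kinase class 1 among 6 (1.29). The SR proteins with Tra2a and Tra2b held 0 among 12, with a median of -0.22. Of these 12, 2 were at an unadjusted p under 0.05 on the higher side and 1 on the lower in edgeR, and DESeq2 called Srsf1 and Srsf2 higher. The difference between the classes was not tested.

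Son (ENSMUSG00000022961.17, GRCm38 chr16:91647506-91679221) had the largest difference. It encodes a large scaffold protein without which speckles lose their structure. Its level was 2805, 3746, 5059 and 2617 CPM in the astrocyte libraries, 506, 569, 582 and 369.7 CPM in the progenitor libraries and 854, 1229, 670.1 and 1246 CPM in the stem cell libraries. The 3 cell types did not overlap, with stem cells between the other two. The fold difference between astrocytes and progenitors was 7.05 (log2 2.82 ± 0.27, SE, adjusted p = 0.000954).

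Pnisr (ENSMUSG00000028248.15, chr4:21847583-21876475) showed the same order. Its level was 2892, 4307, 3862 and 2920.2 CPM in astrocytes, 705, 654, 659 and 511 CPM in progenitors and 1025, 995, 867 and 823 CPM in stem cells. Again no libraries of different cell types overlapped, and the log2 fold change between astrocytes and progenitors was 2.47 ± 0.21 (adjusted p = 0.000431).

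Srrm2 (ENSMUSG00000039218.16, chr17:23790532-23824741) encodes the second core scaffold of speckles, a protein with very long serine- and arginine-rich regions. It was measured at 3642, 3115, 2587 and 2003 CPM in astrocytes, at 675, 817, 739.9 and 600.0 CPM in progenitors and at 634, 826, 687 and 562 CPM in stem cells. Unlike Son, its progenitor and stem cell values covered the same range. The astrocyte to progenitor fold was 4.0 (log2 2.0 ± 0.22, adjusted p = 0.00132).

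Luc7l3 (ENSMUSG00000020863.15, chr11:94287890-94321988) belongs to the family of U1 snRNP-associated proteins that help to select 5′ splice sites. It was at 1162, 1105, 1209.8 and 797 CPM in astrocytes, 207, 211, 222 and 179 CPM in progenitors and 252, 339, 338 and 256 CPM in stem cells, with no overlap between any of the cell types (astrocytes against progenitors, log2 2.38 ± 0.24, adjusted p = 0.000998). The related genes Luc7l2 and Luc7l were not called by edgeR, and DESeq2 called Luc7l2 higher. Luc7l2 ranged from 62.0 to 439 CPM in astrocytes and from 47.6 to 75.3 CPM in progenitors (log2 1.98 ± 0.56, adjusted p = 0.0582), but 18.9% of its exonic bases overlap another annotated gene. Luc7l ranged from 33.2 to 224 CPM and from 149 to 182 CPM (log2 -0.31 ± 0.53, adjusted p = 0.830).

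**Figure D3:**
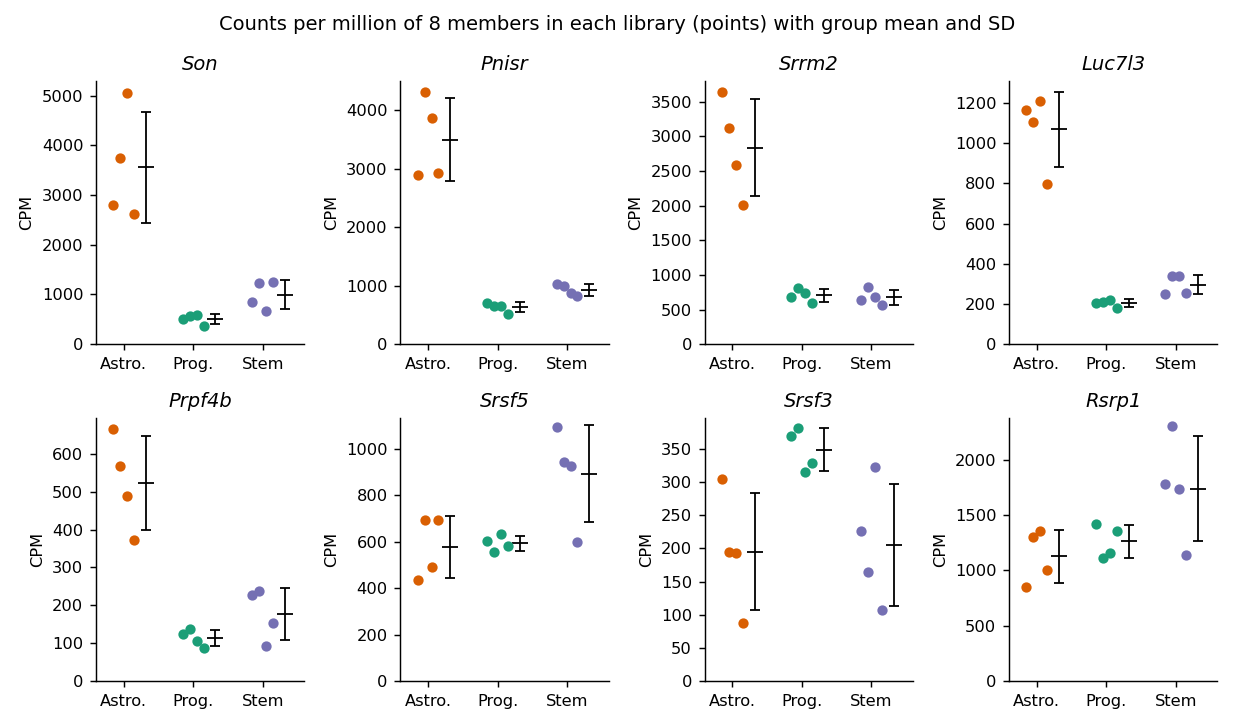
CPM of 8 members in each library (points, axes from 0), with the group mean and SD (n = 4) in black. In Son, Pnisr, Srrm2, Luc7l3 and Prpf4b every astrocyte library is above every other library, whereas Srsf5 and Rsrp1 are at similar levels in astrocytes and progenitors and every progenitor library of Srsf3 is above every astrocyte library.

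Among the remaining scaffold and SR-related genes, Pnn, which encodes pinin, a protein of speckles and of the exon junction complex periphery, was at 781, 1234, 969 and 716 CPM in astrocytes and at 264, 268, 233 and 182 CPM in progenitors (log2 1.97 ± 0.27, adjusted p = 0.00608). Nktr, a cyclophilin with an RS domain, was at 218, 399, 466 and 579 CPM in astrocytes against 123, 120.4, 153 and 124 CPM in progenitors (adjusted p = 0.0172). Acin1, a subunit of the ASAP complex that sits on exon junctions, was at 277, 452, 514 and 434 CPM against 188, 175, 142 and 162 CPM (adjusted p = 0.0223). None of the 3 overlapped between these cell types, but the calls of Nktr and Acin1 were lost when any 1 progenitor library was left out, with adjusted p of at most 0.0545 and 0.0808. Exons of Nktr overlap another annotated gene over 10.3% of their bases and those of Acin1 over 6.30%. Srrm1, the coactivator SRm160, was higher in every astrocyte library without passing the edgeR test (log2 1.13 ± 0.33, adjusted p = 0.0616), and was called by DESeq2. Rsrc2 (log2 0.62 ± 0.47) and Rsrp1 (log2 -0.16 ± 0.22) were not called, and Rsrp1 ranged from 852 to 1354 CPM in astrocytes and from 1110.1 to 1419.9 CPM in progenitors.

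Of the snRNP-associated and RBM genes, U2surp, which encodes the U2-associated protein SR140, was at 837, 542, 745 and 348 CPM in astrocytes and at 125, 145, 138 and 119 CPM in progenitors (log2 2.22 ± 0.33, adjusted p = 0.00735). Rbm25, a U1-associated regulator of 5′ splice site choice, was at 378, 791, 739.5 and 607 CPM against 164, 228, 212 and 190.1 CPM (log2 1.67 ± 0.31, adjusted p = 0.0160). Rbm5, known for regulating apoptotic splice isoforms, was at 765, 554, 583 and 792 CPM against 332, 334, 379 and 415 CPM (log2 0.88 ± 0.24, adjusted p = 0.0471). The 2 cell types did not overlap in any of these genes. The call of Rbm5 was lost without astrocyte library d and without any 1 progenitor library (adjusted p up to 0.157). Prpf38b (log2 1.86 ± 0.52, adjusted p = 0.0533) and Rbm39 (log2 0.30 ± 0.31, adjusted p = 0.694) did not pass in edgeR, and DESeq2 called Prpf38b higher.

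The kinase Prpf4b, which phosphorylates spliceosomal proteins during assembly, was at 667, 569, 489 and 373 CPM in astrocytes and at 124, 137, 106 and 88.2 CPM in progenitors (log2 2.2 ± 0.31, adjusted p = 0.00605). The CLK kinases, which act directly on SR proteins, were not called by edgeR: Clk1 (log2 0.67 ± 0.37), Clk2 (log2 1.71 ± 0.61, with no overlap between the cell types) and Clk4 (log2 0.06 ± 0.65). DESeq2 called Clk2 and Cdk12 higher. Clk4 was among the members that differed least, at 25.6, 123, 194 and 40.4 CPM in astrocytes and 97.3, 75.8, 109 and 89.7 CPM in progenitors, so the astrocyte libraries lay on both sides of the progenitor range. Cdk12 had a large and uncertain difference (log2 2.21 ± 0.79, adjusted p = 0.142), with astrocyte libraries at 17.0, 138, 148 and 48.0 CPM, against 15.4, 16.7, 14.2 and 30.1 CPM in progenitors. Its relative Cdk13 was at 68.2, 46.6, 2.96 and 78.2 CPM in astrocytes and at 15.2, 27.1, 42.1 and 22.1 CPM in progenitors (log2 0.87 ± 0.92).

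In the last class, the RNA helicase gene Ddx17 was at 756, 647, 615 and 292 CPM in astrocytes and at 214, 177, 199.7 and 137 CPM in progenitors (log2 1.66 ± 0.34, adjusted p = 0.0163). Thoc2, a subunit of the THO complex that couples transcription to mRNA export, was at 244, 420.5, 449 and 312 CPM against 91.1, 149.6, 125 and 135 CPM (log2 1.52 ± 0.34, adjusted p = 0.0207). Both sets of libraries were separate, and the calls were lost without progenitor library c or d, and for Thoc2 also without progenitor library a. Ddx5, the close relative of Ddx17, had a smaller log2 fold change of 0.69 ± 0.26 (adjusted p = 0.162), and 14.6% of its exonic 50-base words also occur elsewhere among annotated exons. Sfpq, a paraspeckle protein gene, had a log2 fold change of 1.78 ± 0.49 (adjusted p = 0.0526 in edgeR) and was called by DESeq2.

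The SR protein genes had values on both sides. Srsf1, the founding member known as SF2/ASF, had a log2 fold change of 1.24 ± 0.47 (adjusted p = 0.167), and every astrocyte library, at 77.4 to 192 CPM, was above the progenitor libraries at 44.1 to 62.5 CPM. Srsf2, known as SC35, had 0.87 ± 0.46 with no overlap either, although 25.3% of its exonic bases overlap other genes. At the other end, Srsf3, the smallest SR protein, was at 305, 195, 194 and 87.2 CPM in astrocytes and at 370.1, 383, 316 and 329 CPM in progenitors (log2 -0.85 ± 0.38, adjusted p = 0.259). Tra2b, an activator of exons with purine-rich enhancers, ranged from 1.92 to 115 CPM in astrocytes and from 119 to 143 CPM in progenitors (log2 -1.26 ± 0.87, adjusted p = 0.509). In both genes every astrocyte library was below every progenitor library. Srsf5 was the closest to no difference, at 434, 694, 489.9 and 692 CPM against 601, 557, 633 and 583 CPM (log2 -0.04 ± 0.24). The other members of the class were Srsf4, Srsf6, Srsf7, Srsf9, Srsf10, Srsf11 and Tra2a, with log2 fold changes from -1.11 to 0.76.

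**Figure D4:**
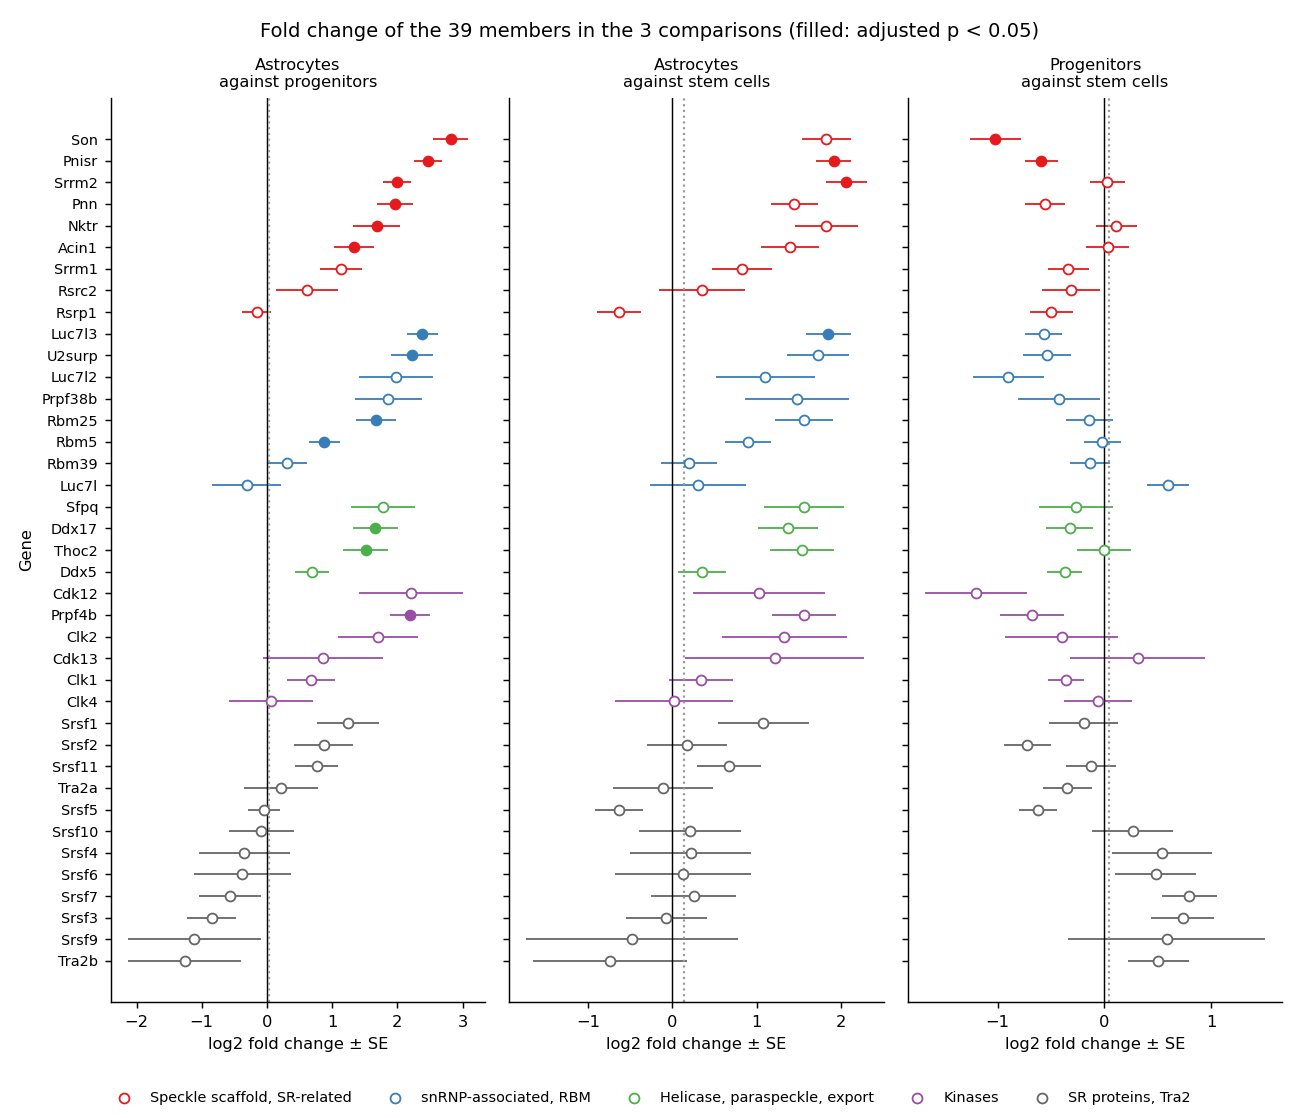
Log2 fold change with its standard error for each member in the 3 comparisons, from edgeR fits across all genes, with filled symbols for an adjusted p under 0.05 and colors for class. Dotted lines mark the median of all genes tested (0.03, 0.14 and 0.04 from left to right); 13, 3 and 2 members are filled.

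The comparison of astrocytes with stem cells shares its astrocyte libraries with the one above. Only 6 of 12831 genes passed the test, all higher in astrocytes, and 3 of these were members, Pnisr, Srrm2 and Luc7l3 (0.0468% of all genes tested were called higher). The others were Syne1, Gm26917 and Gm42418, the last at 710.1 to 1354 CPM in astrocytes and 60.6 to 128 CPM in stem cells. The members had a median log2 fold change of 0.89, against 0.14 for all genes, with 33 of 39 above 0 where 54.6% of all genes were. Srrm2 had a log2 fold change of 2.06 ± 0.24 (adjusted p = 0.00996), Pnisr 1.91 ± 0.21 (adjusted p = 0.00635) and Luc7l3 1.85 ± 0.26 (adjusted p = 0.0434), with no overlap between the libraries given above. The Luc7l3 call was lost in 7 of the 8 fits that left out 1 library (all but astrocyte library d, adjusted p up to 0.275), the Srrm2 call without astrocyte library b or stem cell library 1, 3 or 4 (up to 0.0839) and the Pnisr call without stem cell library 3 or 4 (up to 0.0762). In 15 members every astrocyte library was above every stem cell library, against 3.69% of all genes. The reverse held for 0 members and for 6.28% of all genes. No member was called lower by edgeR or DESeq2 (0 and 2.14% of all genes). Unadjusted p was under 0.05 for 16 members on the higher side and for 2, Rsrp1 and Srsf5, on the lower. The same held for 1226 of all 12831 genes, both sides together.

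The number of calls in that comparison depended on the fit. DESeq2 called 13 members higher, where it called 2.81% of all genes higher. A fit of all 12 libraries together called 12 higher and 0 lower (0.9% and 1.25% of all genes). The test among the 4000 highest genes held 26 members and called 13 higher and 1, Rsrp1, lower (11.3% and 5.71% of all genes in that test). Leaving out stem cell library 3 or 4 left 0 calls of members and of all genes, and leaving out astrocyte library b or stem cell library 1 left 1. At adjusted p between 0.0830 and 0.108 in edgeR were Son (log2 1.82 ± 0.29), Nktr (1.82 ± 0.37), U2surp (1.72 ± 0.37), Prpf4b (1.56 ± 0.38), Rbm25 (1.55 ± 0.34), Thoc2 (1.53 ± 0.37), Pnn (1.44 ± 0.28) and Acin1 (1.39 ± 0.34). By class, the medians were 1.44 for the scaffold and SR-related genes, 1.29 for the snRNP-associated and RBM genes, 1.45 for helicases, paraspeckle and export, 1.12 for kinases and 0.15 for SR proteins. Among those nearest to no difference were Clk4, with stem cell libraries at 151, 80.8, 52.2 and 94.4 CPM (log2 0.02 ± 0.69), and Srsf3, with 226, 164, 323 and 107 CPM (log2 -0.07 ± 0.48).

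Between progenitors and stem cells, both GFP-positive, few members were called by edgeR. These calls were near the share of all genes called, so they are not read as a result about the members. Son and Pnisr were lower in progenitors and 0 members were higher (edgeR), while 3.66% of 15427 genes were called lower and 4.95% higher. Son was at a mean of 507 CPM in progenitors and 999.7 CPM in stem cells (log2 -1.02 ± 0.24, adjusted p = 0.0250), and Pnisr at 632 and 927 CPM (log2 -0.59 ± 0.15, adjusted p = 0.0390). The Son call was lost without any 1 progenitor library and without stem cell library 2 or 4 (adjusted p up to 0.0772), and the Pnisr call in each fit that left out 1 library except stem cell library 4 (up to 0.113). Unadjusted p was under 0.05 for 12 members on the lower side and 3 on the higher, and for 3278 of all 15427 genes, both sides together. DESeq2 called 6 lower (Son, Pnisr, Pnn, Luc7l3, Srsf2 and Srsf5) and 2 higher (Luc7l and Srsf7), where it called 6.69% and 8.83% of all genes. Without a count filter 1 member was lower and 0 were higher (1.5% and 2.49% of all genes), with at least 10 counts required in every library 1 was lower and 1 higher (6.11% and 4.81%), and in the fit of all 12 libraries 0 were called on either side (0.844% and 1.52%). The members' median was -0.27 against 0.04 for all genes.

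Here the SR protein genes had a positive median of 0.37 while the medians of the other classes lay between -0.38 and -0.28. Every progenitor library was below every stem cell library in 6 members (Son, Pnisr, Pnn, Luc7l3, Ddx5 and Srsf2, 7.5% of all genes) and above in 1, Luc7l (11.8% of all genes). Among genes in the 4000 highest of every library, 4 of 27 members were called higher (Srsf3, Srsf7, Tra2b and Luc7l) and 1, Son, lower. Of all genes in that test, 19% were called higher and 17% lower. The 4 members called higher also had positive log2 fold changes in the test over all genes (0.73, 0.80, 0.50 and 0.60), without being called there. Cdk12 had the largest difference, with stem cell libraries at 18.2, 66.8, 42.8 and 44.0 CPM, and it did not pass (log2 -1.20 ± 0.48, adjusted p = 0.172). Thoc2 and Rbm5 were nearest to 0 (log2 -0.01 ± 0.25 and -0.02 ± 0.17).

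The differences between members moved with the length of the coding sequence. Coding length had a median of 3021 bases in the 13 members called higher in astrocytes than in progenitors and 1239 bases in the other 26, and it ranged from 492 to 1533 bases in the SR proteins. Over the 39 members, Spearman's rho of coding length with the log2 fold change was 0.70 for astrocytes against progenitors, 0.77 for astrocytes against stem cells and -0.22 for progenitors against stem cells. These describe genes measured in the same libraries, which are not independent. Over all coding genes tested the corresponding values were 0.15, 0.23 and 0.04. Coding genes of 4000 bases or more had a median log2 fold change of 0.75 between astrocytes and progenitors (906 genes, 10.6% called higher) where those under 1000 bases had -0.20 (3706 genes, 1.38% called higher). The members of 4000 bases or more had a median of 1.68 (7 genes, 5 called), those from 2000 to under 4000 bases 1.87 (8 genes, 6 called, against 3.45% of all coding genes of that range), those from 1000 to under 2000 bases 0.68 (14 genes, 2 called, against 1.93%) and those under 1000 bases -0.12 (10 genes, 0 called). Within each range the members' median lay above that of all coding genes of the range. The latter was 0.75, 0.19, -0.12 and -0.20, from the longest range to the shortest.

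In a fit with a smooth trend in coding length as an offset, added after the data were seen, 14 members were higher in astrocytes than in progenitors, where 2.69% of 11876 coding genes were, and 0 were lower (5.77% of coding genes). Of the 13 calls above, 11 were kept. Acin1 and Thoc2 dropped out and Luc7l2, Prpf38b and Sfpq came in. The fold change of Son went from 2.82 to 2.12, that of U2surp from 2.22 to 2.07 and that of Srrm2 from 2.0 to 1.27, while that of Pnisr went from 2.47 to 2.5 and that of Luc7l3 from 2.38 to 2.61. Under the offset, Spearman's rho of the 39 members with coding length was 0.55 for astrocytes against progenitors and 0.52 for astrocytes against stem cells, and that of all coding genes 0.02 and 0.04. Against stem cells, Pnisr and Luc7l3 were called (0.019% of 10516 coding genes higher, and 0 lower) and Srrm2 was not. Progenitors against stem cells gave 4 lower calls (Son, Pnisr, Luc7l3 and Srsf5) and 0 higher, with 5.07% of coding genes lower and 5.72% higher. The part of coding length in the differences was not tested further.

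**Figure D5:**
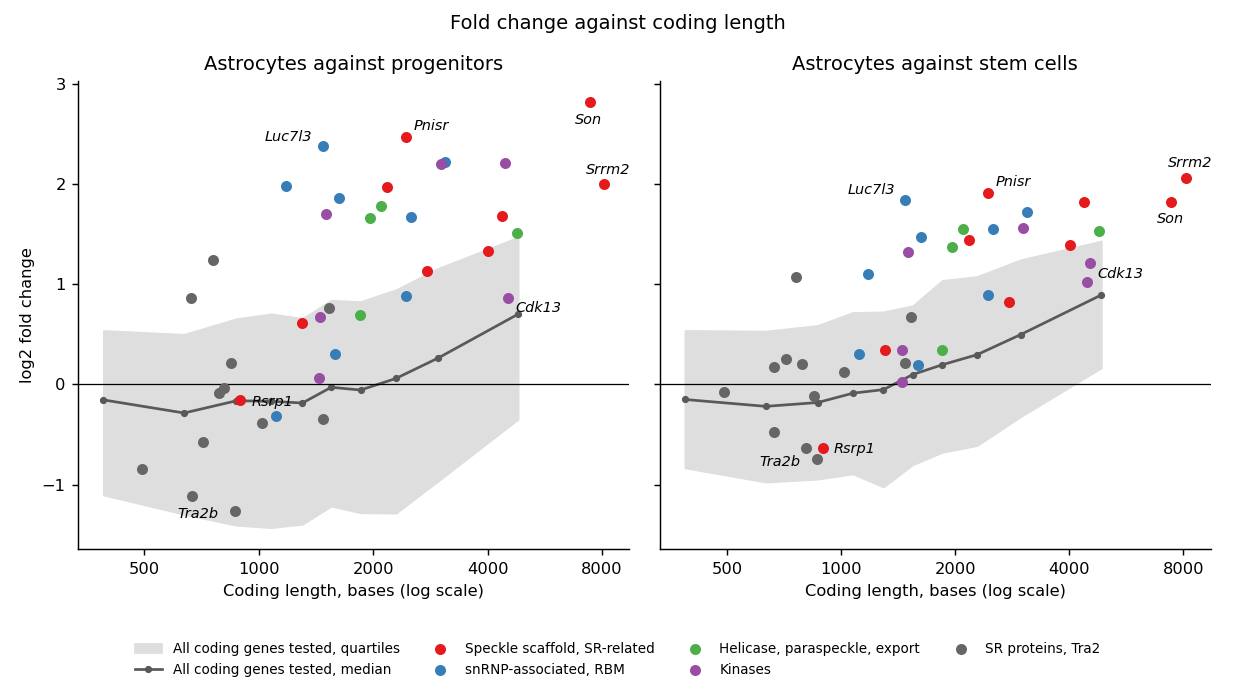
Log2 fold change against coding length in bases (log scale) for the 39 members (colored points) and for all coding genes tested in 10 groups of equal size by coding length (line, median; band, quartiles). Coding genes of 4000 bases or more had a median of 0.75 between astrocytes and progenitors, and the members of that length had 1.68.

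Other genes of the splicing pathway were grouped in lists by function, and the difference between these lists and the members was not tested. In astrocytes against progenitors, 2.45% of all 14806 genes tested were called higher and 6.18% lower. The few calls in each list are therefore not read as a result about that list. Of 49 core spliceosome proteins, 1 was higher in astrocytes than in progenitors, Snrnp70 (345 ± 95.1 against 131 ± 18.2 CPM, log2 1.40 ± 0.33, adjusted p = 0.0241), which encodes the U1 70K protein and carries an RS-like tail, and the median of the list was -0.35. Of 25 hnRNP proteins, which often oppose SR proteins at exons, 1 was lower, Hnrnpc (log2 -1.53 ± 0.41, adjusted p = 0.0465), with a median of -0.28. Of 18 further SR family, SR kinase and import genes, 2 were higher, Zranb2 (log2 1.84 ± 0.34, adjusted p = 0.0160) and Arglu1 (log2 1.66 ± 0.43, adjusted p = 0.0389), with a median of 0.33. Of 21 exon junction complex and export genes, Thoc6 alone was called, lower in astrocytes, where it had counts in 1 of 4 libraries. Of 24 genes in the list of tissue-regulated splicing factors, Msi2 (log2 1.79 ± 0.37) and Qk (log2 1.18 ± 0.31) were higher. Esrp1, an epithelial factor, was lower, with no count in astrocytes and 2.74 to 5.85 CPM in progenitors.

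In progenitors against stem cells, 4.95% of all 15427 genes tested were called higher and 3.66% lower, and calls in the same lists were again few. The core proteins Eftud2 (log2 1.57 ± 0.26) and Sf3a3 (log2 1.37 ± 0.36) and the hnRNP genes Hnrnpa1 (log2 2.02 ± 0.33) and Hnrnpr (log2 0.82 ± 0.22) were higher in progenitors, and Arglu1 (log2 -1.27 ± 0.28), Msi2 (log2 -1.28 ± 0.23) and Qk (log2 -1.20 ± 0.17) were lower. Esrp1 was higher, with no count in stem cells. No exon junction or export gene was called by edgeR, where 1 on each side had an unadjusted p under 0.05, and DESeq2 called 1 lower. Astrocytes against stem cells gave no call by edgeR in any of these 5 lists. There 10 genes were at an unadjusted p under 0.05 on the higher side and 2 on the lower (1226 of all 12831 genes, both sides together). DESeq2 called 6 higher and 1 lower (2.81% and 2.14% of all genes).

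The speckle-associated long noncoding RNA Malat1 moved in the direction of Son. Between astrocytes and stem cells it was called by neither edgeR nor DESeq2. It was at 52477, 55381, 76576 and 52987 CPM in astrocytes, 15489, 15733, 16297 and 11428 CPM in progenitors and 30965, 44079.8, 29687 and 41004 CPM in stem cells, with no overlap between cell types (astrocytes against progenitors, log2 2.01 ± 0.16, adjusted p = 0.000348, and progenitors against stem cells, -1.34 ± 0.17, adjusted p = 0.00156). Neat1, the scaffold of paraspeckles, and the paraspeckle gene Pspc1 were not called by edgeR, whereas DESeq2 called Neat1 lower in progenitors than in stem cells, and Nono, the partner of Sfpq, was higher in progenitors than in stem cells (log2 1.5 ± 0.25). Of 13 immediate early and heat shock genes known to respond to cell dissociation, 6 were lower in astrocytes than in progenitors and 10 were higher in progenitors than in stem cells, among them Fos at 1436 to 2858 CPM in progenitors, 1.78 to 68.8 CPM in astrocytes and 2.6 to 58.9 CPM in stem cells. That response and the mature neuron, oligodendrocyte precursor and (in 3 of 4 progenitor libraries) mural markers moved with the cell types. So did the number of genes detected and the cDNA quality that the study describes. Their part in the members' differences was not tested.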

How the data were processed

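RNA of 12 libraries of 50 sorted cells was sequenced from polyadenylated transcripts. The authors trimmed the reads, aligned them with HISAT2 2.0.6 to GRCm38.p4 and counted them per gene with featureCounts of Subread without regard to strand, and the deposited table holds these raw counts. No count column was left unused. Reads of overlapping or antisense genes cannot be told apart, and without molecular identifiers counting error is the only error that depth describes. The study describes the 4 libraries of a cell type as biological replicates from 1 mouse each, while the labels tie no library to an animal, so libraries of different cell types could not be matched by mouse. The p-values measure the spread between these libraries.

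Each pair of cell types was fitted on its own 8 libraries with edgeR 4.0.16 (TMM, quasi-likelihood test, genes with at least 10 counts in 4 libraries, R 4.3.3), p-values were adjusted by Benjamini-Hochberg over all genes tested, and each SE was derived from the fold change and its F statistic. CPM used TMM library sizes. DESeq2 1.42.0 and the other alternatives are given in the closing section. The fits were run on simulated counts that gave all genes and cell types the same dispersion. The spread of these libraries differed by cell type, so that run does not measure the error of the calls given here. No pair of replicate libraries held identical values. Of the gene identifiers, 50376 of 50600 matched a symbol, and coding lengths and sequences came from the GENCODE annotation and genome of GRCm38. Members were named with values where they were called in a comparison, had the largest difference in it or were among the nearest to 0, and others were named after their values were seen. The members and all lists were chosen with earlier results of these data known. Runs of 8 members are printed, and another that was to be shown is not reported here.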

Additional observations from a re-analysis of the deposited data

Results flagged for a closer look

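Among 66 groups of 4 libraries, 2 held a library whose gap to the next one took more of the group's range than Dixon's critical value at the 0.05 level allows, and chance alone flags about that share of groups. Nktr was at 153 CPM in progenitor library c against 120.4 to 124 CPM in the other progenitor libraries (0.888 of the range). Cdk12 was at 30.1 CPM in progenitor library d against 14.2 to 16.7 CPM in the others (0.844 of the range). The highest progenitor value of Nktr was below its lowest astrocyte value of 218 CPM, and that of Cdk12 was above its lowest astrocyte value of 17.0 CPM.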

How the results depend on the processing

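Over the alternatives, 150 values of counts, medians, shares and scores stayed within 1.5 times or 1 SD of the reported value and 33 moved, and of the named fold changes 426 kept direction and call, 30 gained a call, 63 lost it and 38 changed sign. Members higher in astrocytes than in progenitors numbered 21 with DESeq2 and 8 to 17 when 1 library was left out, and 2 were lower among the 4000 highest genes. In progenitors against stem cells, members higher numbered 2 with DESeq2, 1 with 10 counts in every library, 4 among the 4000 highest genes and 0 to 1 without 1 library, and members lower numbered 6, 1, 1 and 0 to 3, with 1 without a filter, 0 in the fit of all 12 libraries and 4 with the coding length offset. In astrocytes against stem cells, members higher numbered 13 with DESeq2, 13 among the 4000 highest genes (1 lower), 12 in the fit of all 12 libraries and 0 to 3 without 1 library. The share fell to 1.29% in astrocytes and 0.897% in progenitors over coding genes outside the 100 highest, the astrocyte score was 7.58 without members that overlap another gene, and the progenitor score was 7.36 with CPM on total counts.

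The sign changes were in fold changes near 0. Clk4 was at -0.29 (astrocytes against progenitors) and -0.11 (against stem cells) with 10 counts in every library. Srsf5 in astrocytes against progenitors was at 0.00071 after thinning and 0.25 with the length offset. In progenitors against stem cells, Rbm5 was at 0.0058 with RLE factors, 0.0056 with DESeq2, 0.015 without a filter, 0.068 with 10 counts in every library, 0.28 among the 4000 highest genes and 0.0059 with all 12 libraries, and Thoc2 at 0.020, 0.020, 0.028, 0.082, 0.30 and 0.016. Srsf3 in astrocytes against stem cells was at 0.036 with RLE factors and with DESeq2 and 0.18 with the length offset. Without 1 library, Srsf5 ranged from -0.14 to 0.090, Clk4 from -0.56 to 0.38 and from -0.61 to 0.33, Rbm5 from -0.12 to 0.07, Thoc2 from -0.16 to 0.14 and Srsf3 from -0.37 to 0.22. The causes were not tested. No paired analysis was possible because the astrocyte and progenitor columns carry no replicate number. The length offset was chosen after seeing the data. With 4 libraries a group and at most 6253680 counts in astrocytes, low members such as Srsf9 and Cdk13 had SEs near 1 on the log2 scale, and differences of that size were not detectable.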
